A study of Arabidopsis thaliana with 11 samples.

Results

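Small heat shock proteins and heat shock factors were followed in dark-grown hypocotyls, the embryonic stems of seedlings, of Arabidopsis thaliana, ecotype Columbia. The genes were chosen by name, with no cut on a measured value, but earlier results of these data were known when they were chosen. The list of 40 loci holds 18 small heat shock proteins, the chaperone HSP101 and the heat shock factors. Of these, 39 were analysed among 32627 loci on the array, namely 18 small heat shock proteins, HSP101 and 20 heat shock factors, and 1 class B factor on the list is not analysed here. Transcript levels were measured on single-colour NimbleGen arrays in 5 replicates labelled atpme3-1, described as a loss-of-function mutant of the pectin methylesterase gene PME3, and in 6 replicates of wild type. Both groups were grown alike: seeds stood 3 days at 4 °C in the dark, had 6 h of white light at 20 °C and then 4 days of darkness, so that the hypocotyls were 96 h old. No heat treatment is named in the labels. Each replicate was a separate collection of about 300 hypocotyls. The labelled mutant replicates carry the numbers 1, 2, 3, 5 and 6 and the wild-type replicates the numbers 1 to 6.

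Small heat shock proteins are chaperones that bind unfolding proteins without ATP and hold them for refolding by HSP70 and by HSP101, which pulls aggregates apart. Plants have them in the cytosol, the endoplasmic reticulum, the mitochondria and the plastids. Heat shock factors bind heat shock elements in promoters: class A factors activate transcription, and class B factors lack that activation domain and often act as repressors. Small heat shock proteins are made on heat and also, without heat, in maturing seeds, where HSFA9 is the factor known to drive them.

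The targeted gene was read first. PME3 had 14.39 to 14.44 on arrays labelled mutant, against 13.69 to 13.86 in wild type (log2 intensity). It was thus higher, not lower, on arrays labelled mutant, by 0.61 ± 0.040 on the log2 scale (SE; limma adjusted p = 4.91e-07), and an exact two-sided permutation test gave 0.00433, the smallest p that 5 against 6 arrays allow. Neither where the insertion lies nor where the probes bind is given, and probes that lie outside the disrupted stretch would not test the label. For this reason the text speaks of arrays labelled mutant, and all directions depend on that labelling. All 11 markers of the etiolated hypocotyl lay above the dimmest 25% of features. So did all 10 cotyledon and green tissue markers and 9 of 11 root and root hair markers, so this does not identify the tissue. Within groups, correlations between arrays were 0.985 to 0.998, and array medians lay between 3775.6 and 3909.2 intensity units. The closest wild-type arrays were 3 numbers apart: 0.9966 for replicates 1 and 4, 0.9967 for 2 and 5 and 0.9978 for 3 and 6. Other wild-type pairs reached at most 0.9945, and the closest labelled mutant arrays were 1 and 3 (0.9971). The labels call all replicates separate collections, and the cause of this likeness was not tested. If such arrays are not independent, the SE and p-values are too small, so a fit averaging arrays 3 numbers apart is also given. Wild-type replicates 2 and 5 stood apart from the other 4 for these genes. The median absolute difference over the 39 genes was 0.11 (log2) between replicates 2 and 5, against 0.25 to 0.47 between either of them and any other wild-type array. Fits without replicates 2 and 5 are given as descriptions. Where these are a gene's lowest wild-type arrays, leaving them out favours a lower reading on arrays labelled mutant in advance.

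Levels are log2 intensities. A fold change is the labelled mutant mean less the wild-type mean of these, with its standard error (SE) from the limma fit, and p-values are adjusted over all 37118 features, with a threshold of 0.05. In lists of 5 values, labelled mutant replicates follow the order 1, 2, 3, 5, 6, and wild type is given by its lowest, median and highest array. Levels are not compared between genes, since each gene has its own probes.

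Of the 39 genes, 20 passed the threshold, 51.3%, against 32.4% of all features. Of these, 10 were higher and 10 lower on arrays labelled mutant, against 18.8% and 13.6% of all features. By family, 7 small heat shock proteins were higher and 4 lower, 3 heat shock factors were higher and 6 lower, and HSP101 did not pass. The difference between the families was not tested. With a fold of at least 1.5, 9 of the 39 genes were higher and 3 lower, against 3.41% and 5.01% of all features. The groups did not overlap for 12 genes, 30.8%, against 19.6% of all features. These were 9 with all labelled mutant arrays above all wild-type arrays and 3 below, where all features gave 10.3% and 9.35%. The median fold change was 0.0087 over all 39 genes, -0.17 over the small heat shock proteins, whose mean was 0.41, and 0.04 over the factors, against 0.04 over all features. For the small heat shock proteins the median and the mean thus differ in sign. In material of whole hypocotyls, fewer cells of a type and less RNA per cell cannot be told apart.

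**Figure D1:**
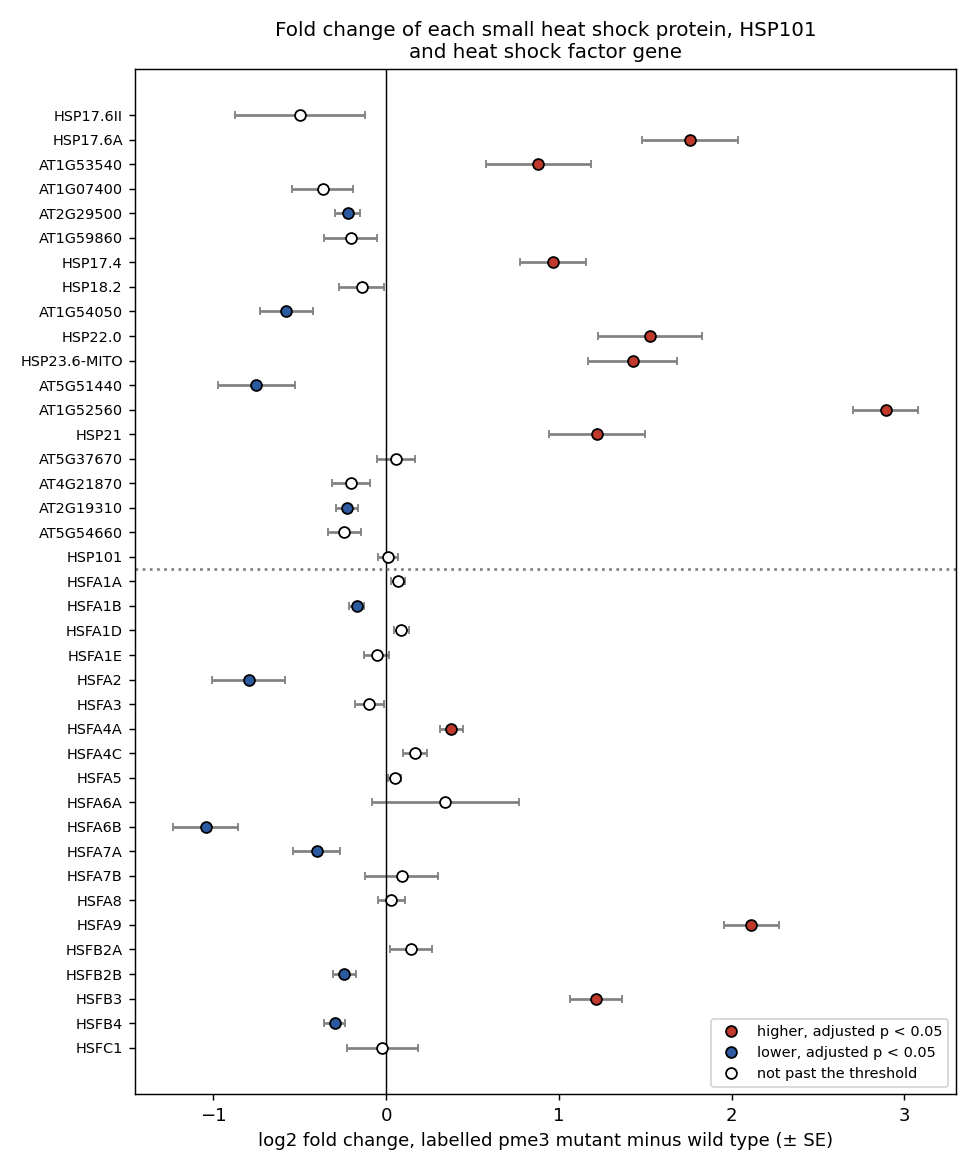
Log2 fold change, labelled mutant minus wild type, of the 18 small heat shock proteins and HSP101 (above the dotted line) and the 20 heat shock factors (below it), with bars for ± SE (n = 5 and 6 arrays). Red points are higher and blue points lower at an adjusted p under 0.05, open points did not pass; AT1G52560 at 2.89 and HSFA9 at 2.11 lie farthest to the right and HSFA6B at -1.05 farthest to the left.

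The largest rise in either family was that of AT1G52560, a small heat shock protein gene known here by its locus only. It read 12.52, 13.33, 12.65, 13.59 and 12.90 on arrays labelled mutant, against 9.85, 10.10 and 10.43 in wild type. Every labelled mutant array lay more than 2 log2 units above the highest wild-type array, and replicates 2 and 5 were the highest. The fold change was 2.89 ± 0.19 (adjusted p = 4.62e-07), or 7.43-fold. A second feature of the locus gave 3.00 ± 0.19 (adjusted p = 3.22e-07), so both probe sets placed it alike.

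HSP17.6A, a class II small heat shock protein of the cytosol, read 14.13, 14.40, 14.05, 14.54 and 14.22 on arrays labelled mutant, against 11.57, 12.90 and 13.00 in wild type. The groups did not overlap, and wild-type replicates 2 and 5 lay more than 1 unit below the other 4. HSP17.6A rose by 1.76 ± 0.28 (adjusted p = 6.05e-04), or 3.39-fold. HSP17.4, a class I protein of the cytosol, read 12.93, 13.09, 13.12, 13.55 and 13.18 on arrays labelled mutant, against 11.60, 12.41 and 12.55 in wild type. These groups did not overlap either, and the fold change was 0.97 ± 0.19 (adjusted p = 0.00263).

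HSP22.0, HSP23.6-MITO and HSP21 each rose. HSP22.0, the form of the endoplasmic reticulum, read 11.71, 11.79, 11.79, 12.09 and 11.89 on arrays labelled mutant, against 9.39, 10.50 and 11.08 in wild type. The labelled mutant arrays lay close together (SD 0.15), while wild type was spread more widely (SD 0.74), and the fold change was 1.53 ± 0.30 (adjusted p = 0.00283). HSP23.6-MITO, a mitochondrial form, read 11.16, 11.99, 11.18, 12.30 and 11.47 on arrays labelled mutant, against 9.56, 10.37 and 10.66 in wild type. It rose by 1.43 ± 0.26 (adjusted p = 0.00167) with no overlap, and labelled mutant replicates 2 and 5 were again the highest. HSP21, the plastid form known for protecting chloroplasts in heat, read 9.10, 10.53, 9.38, 10.69 and 9.61 on arrays labelled mutant, against 8.33, 8.60 and 9.01 in wild type. The lowest labelled mutant array was only just above the highest wild-type array, and the fold change was 1.22 ± 0.28 (adjusted p = 0.00645). HSP21 was dim in wild type, where its mean of 8.64 lay below 9.18, the upper bound of the dimmest 25% of features. The size of its rise depends on the background: after subtracting 90% of each array's lowest intensity it was 1.43 (adjusted p = 0.0059). Averaging arrays whose numbers lie 3 apart, which leaves fewer samples, gave HSP21 an adjusted p of 0.099 at a fold change of 1.09.

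AT1G53540, a further small heat shock protein, read 11.28, 12.00, 11.38, 12.52 and 11.59 on arrays labelled mutant, against 10.01, 11.14 and 11.46 in wild type. Here the groups overlapped, since wild-type replicate 1 lay above labelled mutant replicates 1 and 3. The fold change was 0.88 ± 0.31 (adjusted p = 0.0456). With 1 array left out in turn, AT1G53540 no longer passed in 8 of 11 fits, all but those without labelled mutant replicate 1 or wild-type replicate 1 or 3, with fold changes of 0.69 to 1.00 and adjusted p up to 0.103.

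**Figure D2:**
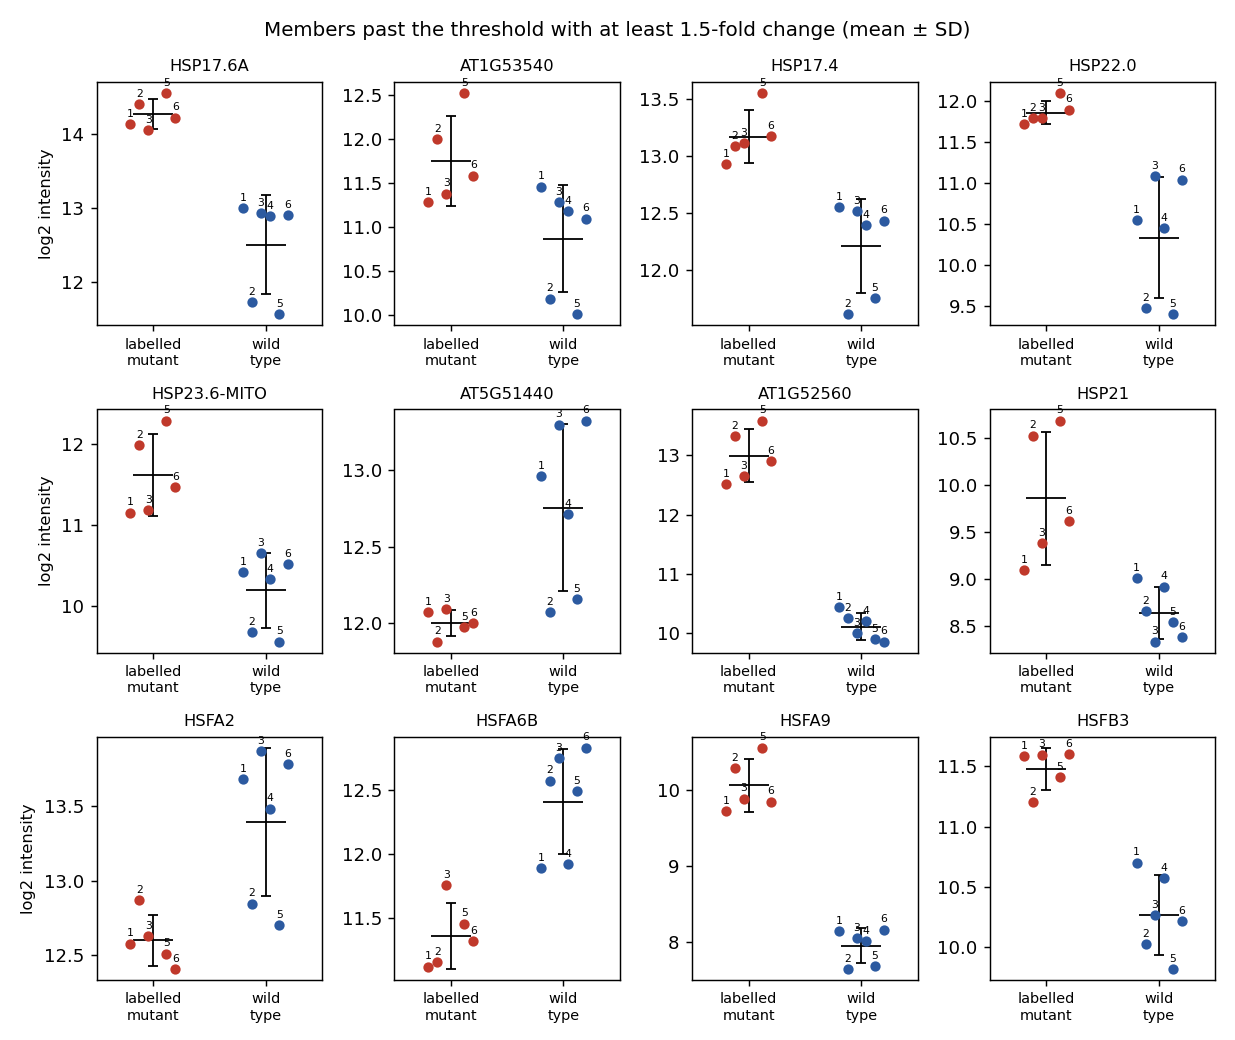
Log2 intensity of the 12 genes that passed the threshold with at least 1.5-fold, 1 point per array with its replicate number, labelled mutant (red, n = 5) left of wild type (blue, n = 6), with mean and SD as bars; each panel has its own axis. Wild-type points 2 and 5 lie lowest in 9 of the panels, among them HSP17.6A, HSFA2 and AT5G51440, and the groups overlap for AT1G53540, AT5G51440 and HSFA2.

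Of the 18 small heat shock proteins, 4 fell, each known here by its locus only. AT5G51440 read 12.07, 11.88, 12.09, 11.97 and 12.00 on arrays labelled mutant, against 12.07, 12.84 and 13.32 in wild type. The groups overlapped because wild-type replicates 2 and 5, at 12.07 and 12.16, came down to the labelled mutant arrays, while the other 4 lay at 12.71 or above. Its fold change was -0.75 ± 0.22 (adjusted p = 0.0238), and -1.07 (adjusted p = 1.70e-04) without those wild-type arrays. Without labelled mutant replicate 2 alone the value was -0.72 and the adjusted p 0.0538. AT1G54050 averaged 10.86 ± 0.40 on arrays labelled mutant and 11.44 ± 0.12 in wild type (SD), with a fold change of -0.58 ± 0.15 (adjusted p = 0.0140). The remaining falls were small: AT2G19310 changed by -0.22 ± 0.065 (adjusted p = 0.0210) and AT2G29500 by -0.22 ± 0.075 (adjusted p = 0.0402). For each of them, too, the groups overlapped. AT2G19310 lost its call without labelled mutant replicate 1 (-0.20, adjusted p = 0.0572). AT2G29500 lost it in 8 of the 11 fits without 1 array, all but those without labelled mutant replicate 5 or wild-type replicate 2 or 5, with fold changes of -0.27 to -0.19 and adjusted p up to 0.0996.

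The other 7 small heat shock proteins did not pass, with fold changes of -0.50 to 0.06. HSP18.2, a class I protein of the cytosol like HSP17.4, averaged 10.69 ± 0.17 on arrays labelled mutant and 10.83 ± 0.28 in wild type (SD), a difference of -0.14 ± 0.13 (adjusted p = 0.420). AT5G54660, AT1G07400, AT1G59860 and AT4G21870 had values of -0.24, -0.37, -0.21 and -0.20 at adjusted p between 0.0750 and 0.322, and AT5G37670 had 0.06 (adjusted p = 0.730). AT1G07400 passed without wild-type replicate 2 alone (-0.48, adjusted p = 0.0404) and without replicate 5 alone (-0.47, adjusted p = 0.0499). AT5G54660 passed without labelled mutant replicate 2 (-0.30, adjusted p = 0.0393) and without wild-type replicate 6 (-0.29, adjusted p = 0.0381). The arrays left out were the lowest wild-type arrays of AT1G07400, and the highest labelled mutant and the lowest wild-type array of AT5G54660. Leaving out such arrays favours a lower call in advance. HSP101, the disaggregase that works with the small heat shock proteins, averaged 14.09 ± 0.03 on arrays labelled mutant and 14.08 ± 0.12 in wild type (SD), a difference of 0.01 ± 0.058 (adjusted p = 0.921).

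The class II pair HSP17.6A and HSP17.6II gave unlike values, although no protein-coding gene lies between their loci, AT5G12030 and AT5G12020, in the TAIR10.1 gene table. HSP17.6II read 11.32, 11.53, 11.08, 11.40 and 11.27 on arrays labelled mutant, against 10.55, 12.22 and 12.65 in wild type. All labelled mutant arrays lay inside the wild-type range, above wild-type replicates 2 and 5 and below the other 4, and the fold change was -0.50 ± 0.38 (adjusted p = 0.328). Without wild-type replicates 2 and 5 it was -1.08 (adjusted p = 1.49e-04), while HSP17.6A remained higher at 1.33 (adjusted p = 7.01e-06). Within each array, HSP17.6A minus HSP17.6II was 2.81, 2.86, 2.97, 3.15 and 2.95 on arrays labelled mutant, against 0.35, 1.00, 0.62, 0.36, 1.02 and 0.79 in wild-type replicates 1 to 6. The size of such a difference between probe sets has no meaning of its own, but its change between the groups, 2.26, takes out what moves both genes alike on an array. No array of one group reached the other, wild-type replicates 2 and 5 included. The pair was chosen after its values were seen, so these values are a description and no test is given. Whether the probes of these similar genes also bind each other's transcripts was not tested.

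**Figure D3:**
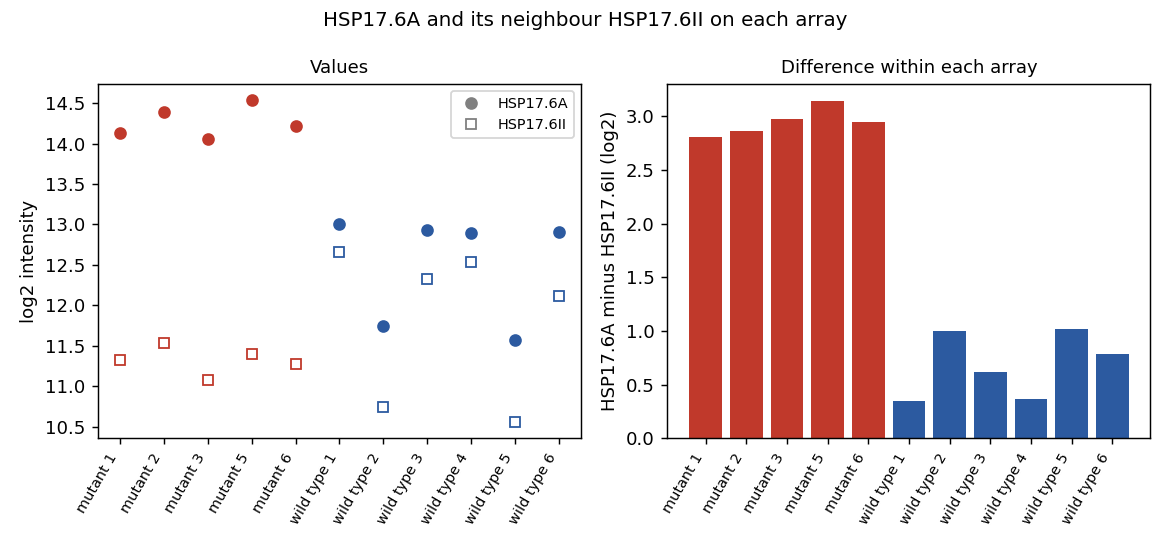
Left, log2 intensity of HSP17.6A (filled circles) and its neighbour HSP17.6II (open squares) on each array, labelled mutant in red and wild type in blue; right, their difference within each array (log2). The difference is 2.81 to 3.15 on arrays labelled mutant and 0.35 to 1.02 in wild type, and in wild-type replicates 2 and 5 both genes are low together.

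Among the factors, HSFA9 changed most. HSFA9, which in Arabidopsis is known from maturing seeds, read 9.72, 10.29, 9.89, 10.56 and 9.85 on arrays labelled mutant, against 7.65, 8.03 and 8.16 in wild type. Each labelled mutant array lay more than 1.5 units above each wild-type array, and replicates 2 and 5 were the highest, as for AT1G52560, HSP17.6A, HSP23.6-MITO and HSP21. The fold change was 2.11 ± 0.16 (adjusted p = 1.61e-06), or 4.33-fold. Its mean over all arrays lay in the dimmest 25% of features, the files hold no detection calls, and the gene is left out where dim features are removed. The size of its rise therefore depends on the background: after subtracting 90% of each array's lowest intensity it was 2.64 on the log2 scale (adjusted p = 2.47e-06).

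The 4 HSFA1 factors, known as the master activators of the heat response, differed little. HSFA1A read 13.13, 13.08, 13.09, 13.06 and 13.07 on arrays labelled mutant, against 12.92, 13.03 and 13.10 in wild type (0.07 ± 0.041, adjusted p = 0.224). HSFA1D read 13.77, 13.73, 13.74, 13.72 and 13.65 on arrays labelled mutant, against 13.51, 13.64 and 13.69 in wild type (0.09 ± 0.042, adjusted p = 0.126). HSFA1E read 12.92, 13.19, 13.07, 13.18 and 13.23 on arrays labelled mutant, against 13.01, 13.16 and 13.34 in wild type (-0.05 ± 0.073, adjusted p = 0.600). The groups overlapped for these 3 factors. HSFA1B read 13.20, 13.25, 13.17, 13.08 and 13.24 on arrays labelled mutant, against 13.29, 13.36 and 13.40 in wild type, with no overlap. Its fold change was -0.17 ± 0.043 (adjusted p = 0.0111), while a second, dimmer feature gave 0.21 ± 0.16 (adjusted p = 0.351), so the fall rests on 1 of its 2 features.

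HSFA2, an activator that heat itself induces and that prolongs the response, read 12.58, 12.87, 12.63, 12.51 and 12.41 on arrays labelled mutant, against 12.70, 13.58 and 13.87 in wild type. Wild-type replicates 2 and 5, at 12.85 and 12.70, lay near the labelled mutant arrays and the other 4 at 13.49 or above. HSFA2 fell by 0.80 on the log2 scale (SE 0.21, adjusted p = 0.0143), and by 1.11 without those wild-type arrays (adjusted p = 4.71e-05). A second feature gave -0.95 ± 0.24 (adjusted p = 0.0115) with no overlap. With arrays 3 numbers apart averaged the adjusted p was 0.0802 at a fold change of -0.80.

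HSFA6B, an activator tied to abscisic acid and drought responses, had the most negative fold change of the 39 genes over all arrays. It read 11.12, 11.16, 11.76, 11.46 and 11.32 on arrays labelled mutant, against 11.89, 12.53 and 12.83 in wild type, with no overlap. Unlike HSFA2, its lowest wild-type arrays were replicates 1 and 4, and the fold change was -1.05 ± 0.19 (adjusted p = 0.00166). Without wild-type replicates 2 and 5 it was -0.98 (adjusted p = 0.0106), and HSFA2, HSP17.6II and AT5G51440 were then lower by more. HSFA6A, its close relative, varied most within wild type: it read 10.19, 11.46, 9.16, 10.03, 11.33 and 9.06 in wild-type replicates 1 to 6, around labelled mutant arrays that averaged 10.55 ± 0.29 (SD). Its wild-type replicates 2 and 5 were the highest, not the lowest. The fold change was 0.34 ± 0.42 (adjusted p = 0.560), and 0.94 (adjusted p = 0.0229) without replicates 2 and 5.

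HSFA4A, an activator linked to salt and oxidative stress, averaged 12.96 ± 0.12 on arrays labelled mutant and 12.58 ± 0.09 in wild type (SD), a rise of 0.38 ± 0.065 (adjusted p = 0.00122) with no overlap. HSFA4C, its relative, had 0.17 ± 0.069 (adjusted p = 0.0870) and passed without wild-type replicate 1, its highest wild-type array (0.22, adjusted p = 0.00960). Leaving out that array favours a higher call in advance. A second feature of HSFA4C gave -0.18 (adjusted p = 0.209), of opposite sign. HSFA7A, an activator induced by heat, fell by 0.40 on the log2 scale (SE 0.13, adjusted p = 0.0393). With 1 array left out in turn, HSFA7A no longer passed in 8 of the 11 fits, all but those without labelled mutant replicate 2 or wild-type replicate 2 or 5, with fold changes of -0.50 to -0.34 and adjusted p up to 0.0834. The remaining class A factors, HSFA3, HSFA5, HSFA7B and HSFA8, had fold changes of -0.10, 0.05, 0.09 and 0.03 and did not pass.

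Among the class B factors, HSFB3 was the exception to small changes. It read 11.59, 11.21, 11.60, 11.41 and 11.61 on arrays labelled mutant, against 9.82, 10.24 and 10.70 in wild type, with no overlap. The rise was 1.21 ± 0.15 (adjusted p = 9.48e-05), or 2.32-fold, and here labelled mutant replicate 2 was the lowest of its group. HSFB4, known as SCHIZORIZA for its part in patterning root tissues, averaged 11.96 ± 0.12 on arrays labelled mutant and 12.26 ± 0.08 in wild type (SD), a change of -0.30 ± 0.062 (adjusted p = 0.00406) with no overlap. HSFB2B, a repressor of heat-induced genes, fell by 0.24 on the log2 scale (SE 0.068, adjusted p = 0.0185), while HSFB2A had 0.14 ± 0.12 (adjusted p = 0.391). HSFC1, the single class C factor, had -0.02 ± 0.21 (adjusted p = 0.947), with wild-type replicates 2 and 5 its highest wild-type arrays.

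The spread within groups was itself large for these genes. The SD over the wild-type arrays had a median of 0.32 for small heat shock proteins and 0.16 for factors, against 0.12 over all features. It lay in the top 10% of all features for 9 of 18 small heat shock proteins and 7 of 20 factors. On arrays labelled mutant the same held for 5 of 18 and 3 of 20. Wild-type replicates 2 and 5 were the lowest wild-type arrays for 11 small heat shock proteins (61.1%), HSP101 and 8 factors, against 15.7% of all features. Labelled mutant replicates 2 and 5 were the highest of their group for 11 small heat shock proteins and 4 factors, against 13.6% of all features. Averaged over the 18 small heat shock proteins, levels relative to the wild-type mean were 0.25, 0.58, 0.22, 0.68 and 0.29 on arrays labelled mutant, against 0.26, -0.30, 0.19, 0.13, -0.42 and 0.14 in wild-type replicates 1 to 6. Labelled mutant replicates 1 and 3 thus lay no higher than wild-type replicate 1 on this average.

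**Figure D4:**
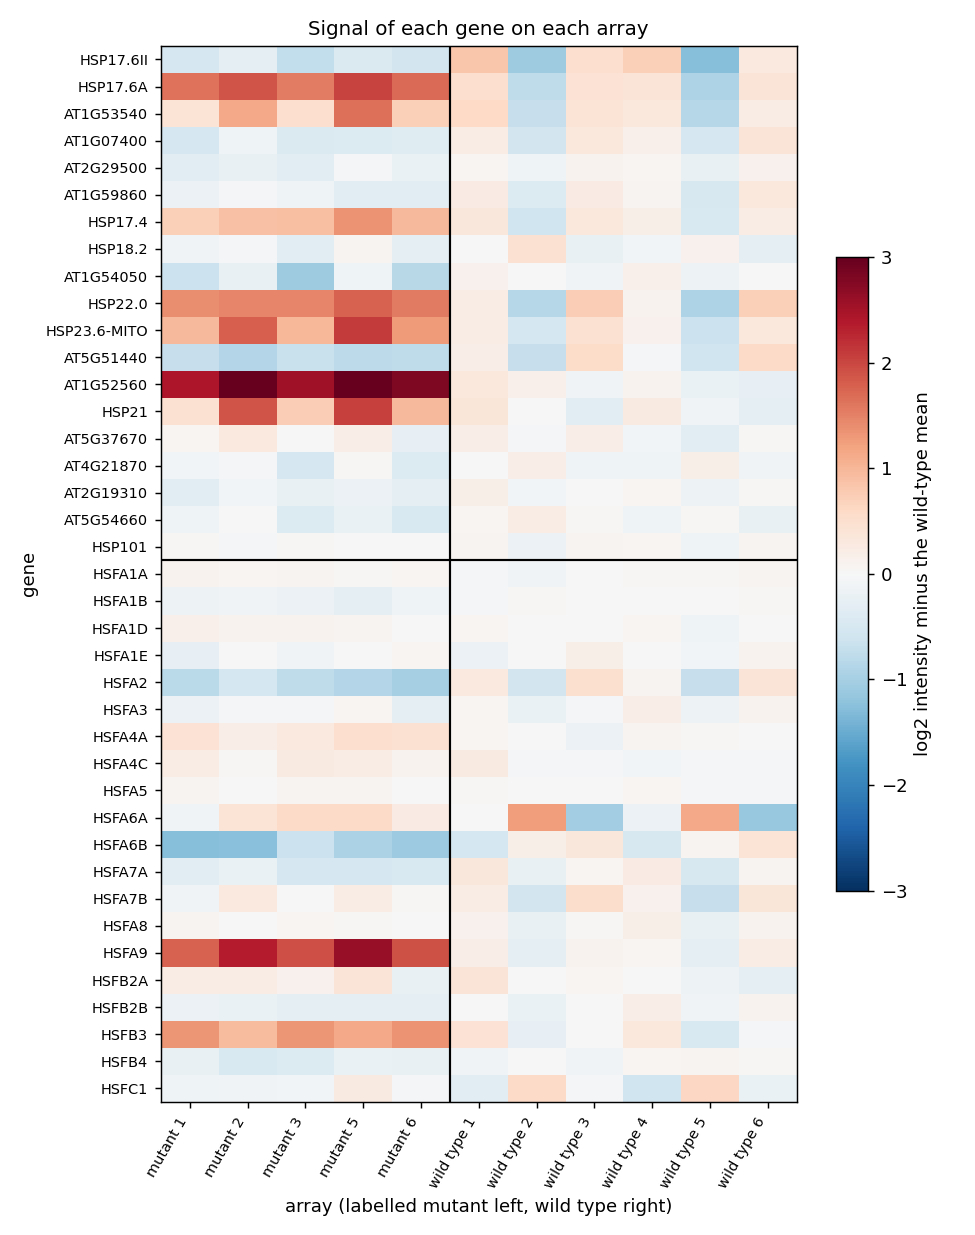
Log2 intensity of each gene on each array minus its wild-type mean, labelled mutant arrays left of the vertical line and wild-type arrays right of it, small heat shock proteins and HSP101 above the horizontal line and factors below. Values above 3 take the darkest red; wild-type replicates 2 and 5 are the lowest wild-type arrays for 20 of the 39 genes, and the highest for HSFA6A and HSFC1, among others.

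Without wild-type replicates 2 and 5, 19 of the 20 calls remained, where over all features 72.3% did, and AT1G53540 was lost (0.50, adjusted p = 0.139). These were the lowest wild-type arrays for AT2G29500, AT5G51440, AT2G19310, HSFA2, HSFA7A and HSFB2B, so leaving them out favours these lower calls in advance. They were also the lowest for HSP17.6A, AT1G53540, HSP17.4, HSP22.0, HSP23.6-MITO, HSFA9 and HSFB3, whose rises became smaller. The share of calls kept is therefore a description and not a test. Beside HSP17.6II, AT1G07400 (-0.63, adjusted p = 3.73e-04) and AT1G59860 (-0.43, adjusted p = 0.00195) then passed as lower and HSFA6A as higher. The count of lower small heat shock proteins was thus 7 in place of 4, while over all features 12.1% were lower in place of 13.6%. Replicates 2 and 5 were the lowest wild-type arrays for HSP17.6II, AT1G07400 and AT1G59860 and the highest for HSFA6A. Leaving them out favours such calls in advance, so these adjusted p are a description and not a test. With arrays 3 numbers apart averaged, 11 of the 20 calls remained, where over all features 58.0% of the calls did. The 9 lost were AT1G53540, AT2G29500, AT1G54050, AT5G51440, HSP21, AT2G19310, HSFA2, HSFA7A and HSFB2B. Of the rises of at least 1.5-fold, 7 were kept: HSP17.6A, HSP17.4, HSP22.0, HSP23.6-MITO, AT1G52560, HSFA9 and HSFB3.

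The wider chaperone network was read from 38 genes of HSP70, HSP90, cochaperone and heat response families, a list chosen with earlier results of these data known. Of these, 5 were higher and 5 lower, 13.2% each, against 18.8% and 13.6% of all features, and the median fold change was 0.02. GOLS1, a galactinol synthase that heat shock factors induce, rose by 1.17 ± 0.14 (adjusted p = 9.46e-05) and averaged 13.50 ± 0.21 on arrays labelled mutant and 12.33 ± 0.30 in wild type (SD). HSP70B, a heat-inducible cytosolic HSP70, rose by 0.75 ± 0.064 (adjusted p = 4.78e-06), and HSP70T-2, of the same family, by 0.57 ± 0.14 (adjusted p = 0.0113). Of the 5 falls, the largest were those of DREB2C (-0.76 ± 0.22, adjusted p = 0.0202), DREB2A (-0.60 ± 0.12, adjusted p = 0.00315), both DREB-type activators of stress genes, and AT5G48570, listed there with the synonym ROF2, a binding partner of HSFA2 (-0.56 ± 0.15, adjusted p = 0.0156). Wild-type replicates 2 and 5 were the lowest wild-type arrays for 22 of the 38 genes (57.9%, against 15.7% of all features). Without them, 9 of the 38 genes were lower, where over all features 12.1% were. Leaving out the lowest wild-type arrays of a gene favours a lower call in advance, so this count is a description and not a test.

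Markers of other tissues and stages were read beside these genes. Of 24 seed maturation regulators and products, 17 were higher (70.8%, against 18.8% of all features) and 1 lower, with a median fold change of 0.95, and their summed intensity was 247942 to 287845 on arrays labelled mutant, against 115018 to 148421 in wild type. ABI3, the seed regulator known to act upstream of HSFA9, averaged 13.16 ± 0.10 on arrays labelled mutant and 11.85 ± 0.14 in wild type (SD). Its rise was 1.31 ± 0.073 (adjusted p = 1.33e-07). Of the other regulators listed, ABI5 rose by 0.39 ± 0.13 (adjusted p = 0.0404), and LEC2 was the 1 lower gene (-0.18 ± 0.060, adjusted p = 0.0414). FUS3 (-0.37, adjusted p = 0.199) and LEC1 (0.09, adjusted p = 0.630) did not pass. Wild-type replicates 2 and 5 were the lowest wild-type arrays for 12 of the 24, against 15.7% of all features. Labelled mutant replicates 2 and 5 were the highest of their group for 3 of the 24 (12.5%), near the 13.6% of all features. Of 5 seed coat and endosperm markers, 3 were higher, by 0.25 to 0.32, with summed intensities of 35266 to 40474 on arrays labelled mutant, against 30981 to 34284 in wild type. Of 11 root and root hair markers, 10 were lower (90.9%, against 13.6% of all features) and 1 higher, with a median of -2.06 and sums of 49971 to 78978 on arrays labelled mutant, against 102239 to 140311 in wild type. Of 10 cotyledon and green tissue markers, 2 were higher, 20.0% and thus near the 18.8% of all features, with sums of 161025 to 170724 on arrays labelled mutant, against 142884 to 180261 in wild type, and the groups overlapped for each of them. Wild-type replicates 2 and 5 differed in these markers too: they were the highest wild-type arrays for 7 of the 11 root markers, against 12.0% of all features. The mean over the green tissue markers, relative to wild type, was 0.22 and 0.41 in those arrays and -0.21 to -0.03 in the other 4. No intensity on these arrays was 0, the lowest being 95.7, so a signal above 0 does not show that a marker was detected. In the dimmest 25% of features lay 3 seed maturation, 2 seed coat and endosperm and 2 root markers. The part of the markers in the changes of the heat shock genes was not tested.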

How the data were processed

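Total RNA was labelled with Cy3 and hybridised to single-colour NimbleGen arrays, per the labels' protocols. Each deposited value is a linear intensity of 1 feature on 1 array, made with RMA per the submitters' processing notes. The RMA version and settings and the array's genome build are not stated in the labels. RMA as generally run corrects background and equalises the arrays, so each gene is measured relative to the others. The files hold 37118 features of 32627 loci, and member features rest on 3 or 4 probes.

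Intensities were log2-transformed and fitted by lmFit and eBayes of limma 3.58.1 (R 4.3.3), without filter or covariate. P-values were adjusted over the 37118 features by the Benjamini-Hochberg method and read at 0.05. The feature of highest mean stood for its gene. Symbols are those of RefSeq for the TAIR10.1 assembly, where 11 small heat shock proteins have only a locus. Replicates are separate collections per the labels, and the number of arrays limits the precision. The members, lists, tests and alternatives were chosen with earlier results of these data known. Values by array (wild type as lowest, median and highest) are given for genes past the threshold with at least 1.5-fold and for HSFA9, HSFA2 and the HSFA1 factors; of other lists, up to 3 genes each way are named. On simulated arrays of 37118 features with 200 changed, the fit found 34% of those changed 1.25-fold. It found 80% at 1.5-fold, 96% at 2-fold and all at 4-fold, and made 16 false calls. The simulated arrays were independent of each other and few features changed, while 32.4% of the real features passed. These rates therefore need not hold for the calls given here.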

Additional observations from a re-analysis of the deposited data

Results flagged for a closer look

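In 5 of the 78 groups of arrays examined, 1 array stood far from the others of its group, and chance alone gives about 1 in 20. HSP101 read 14.0285 (log2 intensity) on labelled mutant replicate 2, with the nearest array at 14.1011. HSFA1D read 13.5148 in wild-type replicate 5, with the nearest at 13.6316. HSFA4A read 12.3975 in wild-type replicate 3, with the nearest at 12.5752. HSFA4C read 13.438 in wild-type replicate 1, with the nearest at 13.142. HSFC1 read 11.9169 on labelled mutant replicate 5, with the nearest at 11.601. Of these genes, HSFA4A passed the threshold, and its call was kept in all 11 fits without 1 array.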

How the results depend on the processing

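Of the 20 calls, 15 were kept in all 11 fits without 1 array. Leaving out each array gave 6 to 7 higher and 2 to 5 lower genes among the small heat shock proteins and HSP101, 3 to 4 and 5 to 6 among the factors, 3 to 5 and 4 to 6 among other chaperones, and 0.58 to 0.62 for PME3 (log2). The lowest count of lower small heat shock proteins, 2, came without labelled mutant replicate 1, and other chaperones had 3 higher genes without labelled mutant replicate 2 and without wild-type replicate 2. Without the dimmest 50% of features, which removes members, 2 small heat shock proteins and 1 factor were higher. At an adjusted p of 0.01, 0 small heat shock proteins and 2 factors were lower, and 2 other chaperones were higher and 2 lower. With a fold of at least 1.5, 1 small heat shock protein and 2 factors were lower, and 2 other chaperones were higher and 2 lower. With arrays 3 numbers apart averaged, which leaves fewer samples, 0 small heat shock proteins and 3 factors were lower, and 2 other chaperones were higher and 2 lower. Without wild-type replicates 2 and 5, 7 small heat shock proteins and 9 other chaperones were lower. Where these are the lowest wild-type arrays of a gene, leaving them out favours such calls in advance. The cause of these differences was not tested.

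Same-numbered arrays of the groups deviated from their group means with correlations of 0.29, -0.061, 0.099, -0.027 and 0.051 for numbers 1, 2, 3, 5 and 6, so the numbers were not taken as pairs. With the replicate number as a fixed block, 6 small heat shock proteins were higher and 4 lower, 3 factors were higher and 3 lower, and 4 other chaperones were higher and 3 lower. The replicate block gave PME3 0.62. With it as a random block the counts were 7 and 4, 3 and 6, and 6 and 5.

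The direction turned in 20 values of 8 genes, with adjusted p of 0.103 or more. HSFA1B, alone of them past the threshold, became 0.018 (adjusted p = 0.887) with its features averaged, and HSFA4C -0.0089. HSP101 became -0.0018 with centring on the 75th percentile. Without wild-type replicates 2 and 5 together, the values were 0.0085 for HSP18.2, -0.033 for AT5G37670, -0.067 for HSP101, -0.22 for HSFA7B, -0.079 for HSFA8 and 0.28 for HSFC1. Leaving out each array gave ranges across 0 of -0.0085 to 0.13 for AT5G37670, -0.024 to 0.027 for HSP101, -0.049 to 0.20 for HSFA7B, -0.0135 to 0.064 for HSFA8 and -0.14 to 0.10 for HSFC1, none past the threshold. Scaling alternatives placed the median of all features at 0.034 to 0.060 (log2).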
